A study of Mus musculus with 20 samples.

Results

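Chromatin accessibility was followed around 8 genes for mesenchymal transcription factors, Snai1, Snai2, Twist1, Twist2, Zeb1, Zeb2, Prrx1 and Prrx2. All ATAC-seq peaks within 20 kb of the span of each gene were collected from the 20 libraries, and overlapping peaks (1 bp or more) of different libraries were joined into a single region. This gave 195 regions built from 927 peaks, of 335858 regions and 1582423 peaks in all. There were 16 regions near Snai1, 4 near Snai2, 12 near Twist1, 20 near Twist2, 33 near Zeb1, 57 near Zeb2, 28 near Prrx1 and 25 near Prrx2. The median over 21829 protein-coding genes was 12. Of the 195 regions, 37 were promoter regions within 2 kb of a start site of their own gene, 154 were distal, and 4 lay at promoters of the neighbouring genes Ntmt1 and Asb6.

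In ATAC-seq, Tn5 transposase cuts accessible DNA. The 20 libraries came from mouse embryonic fibroblasts (MEFs; 1 library), embryonic stem cells (ESCs; 3 libraries) and MEFs given Oct4 with either native Nanog or NanogN70 (in each path 1 library for each of days 0, 1, 3 and 5, then of days 7, 8, 10 and 12). NanogN70, NanogBiD in the study, is NANOG with the N-terminal BRG1-interacting domain of SS18 fused to its N-terminus. SS18 and BRG1 belong to the BAF chromatin remodelling complex. The MEFs were cultured from embryos of male OG2 mice, which carry an Oct4-GFP reporter, crossed to wild-type females of another strain. The cells were infected with retroviral pMXs vectors in successive rounds whose end was taken as day 0. They were kept in iCD3 medium and later moved to N2B27 with 2iL. The ESCs were derived from embryos of OG2 mice, and the study names no such cross for them. Strain background may thus differ between MEFs and ESCs. Time course samples were whole cultures in which few cells form colonies, so a smaller share of cells with an open region and less opening per cell cannot be told apart. Titles put the ESC samples in their group, although their source field reads MEF.

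Depth is not known. Libraries had 44126 to 125467 peaks, and over 14217 regions open in all 20 libraries the median summit pileup (the tags stacked at the summit) was 16 to 60. Pileups below are raw tags, and a relative pileup is the pileup divided by this median of the same library. The lowest score, a multiple of the negative log10 of the MACS p-value, was 50, and accessibility too weak to reach it is not seen. The NanogN70 day 3 library stood apart. It had the highest median (60), and promoter peaks at 10 of 10 T lymphocyte and 10 of 10 leukocyte marker genes, where the remaining libraries of the time course had 1 to 4 and 2 to 4, and MEFs had 5 and 5. Its part in the results was not tested, and several results are also given without day 3. Fibroblast markers had a promoter peak at 10 of 10 genes in MEFs and at 6 to 7 in ESCs, and ESC markers at 6 of 10 in MEFs and 9 to 10 in ESCs, so peak presence separated the cell types only in part.

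These 8 genes are best known from epithelial-mesenchymal transition and from the development of mesenchyme. SNAI1, SNAI2, ZEB1 and ZEB2 are zinc finger proteins that bind E-boxes and repress epithelial genes such as Cdh1. TWIST1 and TWIST2 are basic helix-loop-helix factors, and PRRX1 and PRRX2 are paired-related homeodomain factors of limb and craniofacial mesenchyme. Fibroblasts express many of them. During reprogramming to pluripotency, fibroblasts lose this program and gain epithelial features.

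The sequences below are from a promoter and a set of distal elements, some of them weak, whose peaks differed between MEFs, ESCs or the paths. They are examples and not a ranking. Each distal sequence spans 201 bp centred on the top summit, and the Twist1 sequence is the 250 bp before its start site. All are from GRCm38 (mm10), plus strand and 5′ to 3′, and the Twist1 promoter is from RefSeq. Capitals mark matches, on either strand, to 8 short motifs: AP-1 (TGANTCA), TEAD (GGAATG), a SNAIL/ZEB E-box (CAGGTG), a TWIST E-box (CATATG), RUNX (TGTGGT), SOX (CATTGTT), OCT (ATGCAAAT) and KLF/SP (GGGCGG). The motifs were chosen after the data were seen, and a match is a description of the letters and not a binding site. The Twist2 intron element at chr1:91816735-91816935 holds a pair of AP-1 matches, and the element at chr1:91823436-91823636 in the same intron holds no match. The element upstream of Snai1 at chr2:167530120-167530320, open in ESCs and late with NanogN70, holds an OCT match that overlaps a TWIST E-box by 3 bases. The element downstream of Zeb2 at chr2:44977226-44977426, strong in MEFs, holds an AP-1 match. The Zeb2 intron element at chr2:45071504-45071704, open only in the time course, holds an OCT match. The element upstream of Twist1 at chr12:33939990-33940190, open mostly with Nanog, holds an OCT and a RUNX match. The Twist1 promoter at chr12:33957421-33957670 holds a KLF/SP match.
Twist2 intron element, 15.4 kb: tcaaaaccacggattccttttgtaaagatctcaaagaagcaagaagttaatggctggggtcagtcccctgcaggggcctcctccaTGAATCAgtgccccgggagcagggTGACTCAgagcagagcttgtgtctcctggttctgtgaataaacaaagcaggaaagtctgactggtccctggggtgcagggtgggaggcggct
Twist2 intron element, 22.1 kb: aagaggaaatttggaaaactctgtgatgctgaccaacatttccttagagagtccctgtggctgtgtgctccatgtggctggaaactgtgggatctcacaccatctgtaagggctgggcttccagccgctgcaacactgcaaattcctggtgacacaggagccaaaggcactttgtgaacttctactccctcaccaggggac
Snai1 upstream element, -7.98 kb: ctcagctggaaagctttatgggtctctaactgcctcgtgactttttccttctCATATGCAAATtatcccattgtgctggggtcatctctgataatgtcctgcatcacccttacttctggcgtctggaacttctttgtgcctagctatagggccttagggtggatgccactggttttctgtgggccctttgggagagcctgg
Zeb2 downstream element, 140.1 kb: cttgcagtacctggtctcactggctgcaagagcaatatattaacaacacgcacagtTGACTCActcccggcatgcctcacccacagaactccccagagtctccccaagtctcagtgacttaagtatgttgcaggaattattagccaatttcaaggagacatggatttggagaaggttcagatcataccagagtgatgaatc
Zeb2 intron element, 45.8 kb: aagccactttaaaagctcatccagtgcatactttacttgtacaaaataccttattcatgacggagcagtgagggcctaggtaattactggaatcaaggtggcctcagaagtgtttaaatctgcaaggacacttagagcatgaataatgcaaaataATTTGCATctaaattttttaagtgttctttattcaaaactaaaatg
Twist1 upstream element, -17.6 kb: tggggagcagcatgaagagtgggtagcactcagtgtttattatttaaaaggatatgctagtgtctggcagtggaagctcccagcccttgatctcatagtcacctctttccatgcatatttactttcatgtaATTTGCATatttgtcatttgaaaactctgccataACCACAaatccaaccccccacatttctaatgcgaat
Twist1 promoter: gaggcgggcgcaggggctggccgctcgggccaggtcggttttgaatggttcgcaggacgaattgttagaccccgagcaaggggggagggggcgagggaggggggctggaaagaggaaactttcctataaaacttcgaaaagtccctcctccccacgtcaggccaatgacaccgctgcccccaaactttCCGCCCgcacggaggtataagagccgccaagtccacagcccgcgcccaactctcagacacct

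The first comparison asks which of these regions distinguish fibroblasts from ESCs. Of the 195 regions, 61 (31.3%) were MEF-only (a peak in MEFs and none in any ESC library), where the background over all regions near protein-coding genes was 19.9%. ESC-only regions, open in at least 2 ESC libraries and not in MEFs, numbered 18 (9.23%), against a background of 17.2%. A further 12 regions (6.15%, against 11.5%) were open in MEFs and all ESC libraries, and 72 (36.9%, against 37.7%) were open in neither. The MEF-only regions were unevenly spread. Prrx1 had 16 of 28 (57.1%) and Prrx2 had 12 of 25 (48.0%), while Zeb2 had 13 of 57, Zeb1 had 8 of 33, Twist2 had 6 of 20, Snai1 had 4 of 16, and Snai2 and Twist1 had 1 each. Only 9 of the 61 had a MEF pileup of at least 20, and the median was 9. There is 1 MEF library, so these counts have no test, and regions of a gene are not independent.

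**Figure D1:**
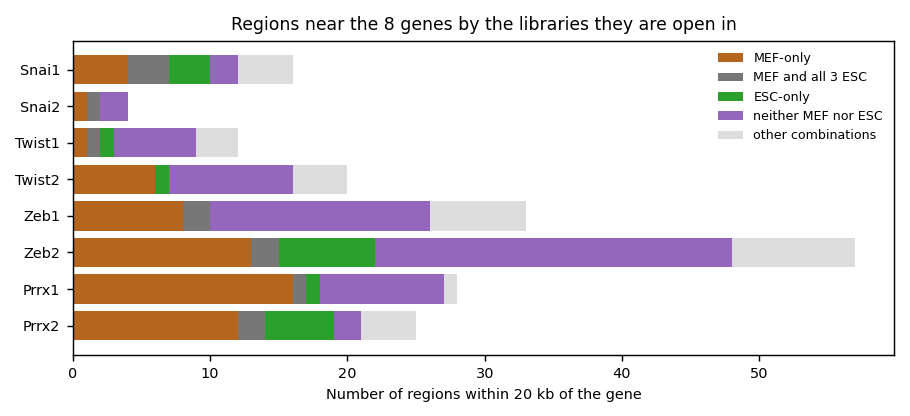
Number of regions (horizontal axis) within 20 kb of each gene, stacked by the libraries in which they were open. Prrx1 and Prrx2 had the highest shares of MEF-only regions (16 of 28 and 12 of 25), and Zeb2 had the most regions open in neither MEF nor ESC (26 of 57).

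AP-1 motifs were in 17 of the 61 MEF-only windows (27.9%), against 38.1% of all MEF-only regions near protein-coding genes and 15.9% of all regions near them. RUNX motifs were in 19 (31.1%, against 22.3%) and TEAD motifs in 9 (14.8%, against 24.1%). Prrx1 had RUNX matches in 6 and AP-1 matches in 2 of its 16 MEF-only windows, and Zeb2 had AP-1 matches in 6 of 13. The SNAIL/ZEB E-box was in 4 (6.56%, against 5.08%) and the OCT motif in 1 (1.64%, against 1.09%). In the 72 regions open in neither MEFs nor ESCs the OCT motif was in 7 (9.72%), where 3.66% of all regions of this class near protein-coding genes had it.

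At the promoters, MEFs were set beside ESCs by relative pileup. A gene was called higher in MEFs when MEFs had at least 2 times the highest ESC library, which held for 3.13% of 13912 genes, and lower when at most 1/2 of the lowest, which held for 6.48%. Twist2, Twist1 and Zeb2 were called higher in MEFs, and none of the members was called lower. With a minimum score of 100 Twist2 could no longer be compared, and with equal numbers of top-scoring peaks none of the 3 could. Snai1, Snai2, Prrx1 and Zeb1 were not called, and Prrx2 had no promoter peak in 1 ESC library.

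Snai1 (chr2:167538195-167542814, plus strand), a repressor of Cdh1, had a promoter peak in all 20 libraries. Its pileup was 72 in MEFs and 48, 63 and 48 in ESCs. With Nanog it was 32, 31, 35, 23, 56, 42, 35 and 36 from day 0 to day 12, and with NanogN70 it was 45, 46, 84, 34, 56, 58, 61 and 74. The relative pileup in MEFs was 1.85, against 1.60 ± 0.0904 (SD, n = 3) in ESCs, a ratio of 1.15. On day 12 it was 1.50 with Nanog and 1.80 with NanogN70, and the lowest value of either path was 0.821, on day 5 with Nanog. NanogN70 minus Nanog was 0.34 on the log2 scale, higher on 5 and lower on 2 of 8 days (exact two-sided sign-flip permutation test over days, p = 0.0625; adjusted p = 0.327). Over 11489 genes with a promoter peak in all time course libraries, 7.49% were lower and 8.35% higher with NanogN70 at an unadjusted p under 0.05, and 0 passed after Benjamini-Hochberg adjustment by the same test, in which 1819 genes had an unadjusted p under 0.05. The smallest p this design allows is 0.00781, and since each path is a single time course, days stand in for replicates without being biological ones.

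The Snai1 element at -7.98 kb (chr2:167529732-167530354, intergenic) had pileups of 7, 13 and 7 in ESCs and no peak in MEFs or on any day with Nanog. With NanogN70 it had no peak on days 0, 1 and 3 and pileups of 7, 12, 9, 11 and 13 from day 5 to day 12, at scores of 82.0 to 236. Its open days thus numbered 5 and 0. A second ESC-only region lies within 2 kb of the start site, in the Snai1 intron (chr2:167539860-167541094), with pileups of 19, 24 and 14 in ESCs. It opened on day 12 with Nanog (12) and on days 10 and 12 with NanogN70 (13 and 21), so both paths reached it late. The ESC-only distal region with the highest ESC pileup, at -18.1 kb, had 14, 16 and 14 in ESCs and a peak with NanogN70 alone, on day 3 (11) and day 8 (5), which leaves 1 open day without day 3.

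Among the elements open in MEFs, the region 5.28 kb downstream of the start (chr2:167543094-167544370) was MEF-only with a pileup of 27. It had peaks on days 0, 1 and 8 in both paths, at 9, 7 and 11 with Nanog and 18, 12 and 11 with NanogN70. A region 14.8 kb downstream in an exon of Gm11476 (chr2:167552700-167553452), singled out after its values were seen, had 40 in MEFs, a weak peak of 6 in 1 ESC library, and peaks on all 8 days of both paths. With Nanog these were 20, 14, 25, 16, 27, 49, 29 and 10, and with NanogN70 they were 13, 3, 8, 3, 10, 14, 7 and 9. Every NanogN70 value was below the Nanog value of its day, and so was every relative pileup (0.130 to 0.542 with NanogN70 and 0.417 to 1.53 with Nanog).

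Snai2 (chr16:14705852-14709385, plus strand), known as Slug in neural crest and mesenchyme, had the fewest regions. Its promoter was open in all 20 libraries, at 83 in MEFs and 42, 51 and 41 in ESCs. With Nanog it had 29, 28, 29, 74, 65, 56, 28 and 29, and with NanogN70 42, 33, 27, 32, 59, 32, 40 and 46. In relative terms MEFs were at 2.13 and ESCs at 1.36 ± 0.0521 (SD, n = 3), a ratio of 1.57 that did not reach the call. NanogN70 minus Nanog was -0.34 on the log2 scale, lower on 6 of 8 days (exact sign-flip permutation test, p = 0.164; adjusted p = 0.487). The widest gap on the log2 scale was on day 3, where the library that stood apart had a relative pileup of 0.450 against 1.26 with Nanog, and without day 3 the difference was -0.18. The other 3 regions were weak. The MEF-only region 6.01 kb downstream had 7 in MEFs and 5 on day 7 with Nanog.

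Twist1 (chr12:33957671-33959829, plus strand), a factor of head mesenchyme and cranial sutures, had the clearest promoter difference between the paths among the 4 of the 8 genes that could be tested. Its promoter (chr12:33956685-33958863) had a pileup of 44 in MEFs and of 10, 13 and 10 in ESCs. With Nanog it was 13, 15, 16, 19, 43, 35, 20 and 17 from day 0 to day 12. With NanogN70 it was 17, 12, 11, 13, 15, 9, 7 and 13. The raw pileup was higher with NanogN70 on day 0 only. In relative terms MEFs were at 1.13 and ESCs at 0.333 ± 0.0179 (SD, n = 3), a ratio of 3.39. The Nanog path ranged from 0.679 to 1.13 with a median of 0.841, and the NanogN70 path from 0.183 to 0.750 with a median of 0.370. On days 8, 10 and 12 NanogN70 was at 0.346, 0.250 and 0.317, and ESCs were at 0.313 to 0.345, while Nanog was at 1.09, 0.870 and 0.708. NanogN70 minus Nanog was -1.11 on the log2 scale, lower on 8 of 8 days (exact sign-flip permutation test, p = 0.00781, which is the lowest the design allows; adjusted p = 0.223). It was -0.99 without day 3. With a minimum score of 100 the gene could not be tested, since a NanogN70 library then had no peak there.

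The other elements of Twist1 were weak. The region at -17.6 kb (chr12:33939940-33940256, intergenic), whose sequence is given above, had no peak in MEFs or ESCs. With Nanog it had 7, 10, 12, 7 and 6 on days 1 to 8, and with NanogN70 5 on day 1 alone. The region 15.4 kb downstream of the start was the reverse, open on 5 days with NanogN70 (5, 5, 8, 6 and 5 on days 0 to 7) and on 2 with Nanog (6 and 9), or 4 and 2 without day 3. The MEF-only region at 11.0 kb (8) and the ESC-only region at 10.6 kb (10, 9 and 6) are neighbours and had no peak on any day of either path.

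Twist2 (chr1:91801461-91848028, plus strand), a factor of dermal fibroblasts, had a promoter peak in MEFs that was weak in ESCs and missing from both paths on day 12. Its promoter pileup was 45 in MEFs and 6, 6 and 9 in ESCs, a relative level of 1.15 against 0.219 ± 0.0808 (SD, n = 3) and a ratio of 5.28. With Nanog it was 19, 14, 22, 19, 21 and 18 up to day 8 and 8 on day 10, with no peak on day 12. With NanogN70 it was 25, 15, 11, 8, 6 and 7 up to day 8, with no peak on days 10 and 12. Relative to the library median it was still at 1.19 and 1.04 on day 0, near the MEF level, and at 0.563 and 0.269 on day 8. The promoter was therefore not in the test, which needs a peak in every time course library.

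The strongest MEF-only distal element near any of the 8 genes was the Twist2 intron element 15.4 kb from the start (chr1:91816296-91817099). It had a pileup of 72 and a score of 2173 in MEFs and no peak in ESCs. With Nanog its pileup was 37, 22, 16, 11, 20, 9, 6 and 8, and with NanogN70 it was 32, 12, 9, 6, 11, 12, none on day 10 and 7. In relative terms it was at 1.85 in MEFs, at 2.31 with Nanog and 1.33 with NanogN70 on day 0, and at 0.333 and 0.171 on day 12. It thus stayed detectable on 8 days with Nanog and 7 with NanogN70. The element 22.1 kb from the start (chr1:91823345-91823966), also in an exon of the sense intronic RNA Gm29101, had 55 in MEFs. With Nanog it had 11, 7, 11, none on day 5, 9, 23, 12 and 8. With NanogN70 it had 12, 6 and 6 on days 0, 1 and 8 and no peak on the other 5 days, so its open days numbered 7 and 3. Next to it, at 21.1 kb, a region open only in the time course had 8 and 5 on days 0 and 1 with Nanog and 15 on day 0 with NanogN70. The ESC-only region at -12.5 kb had 6 and 9 in 2 ESC libraries and no peak on any day. Over its 6 MEF-only regions, Twist2 had on average 2.38 open with Nanog and 1.38 with NanogN70, lower on 7 of 8 days (exact sign-flip permutation test, p = 0.0156; adjusted p = 0.330). With a minimum score of 100 the difference was -0.875 (exact sign-flip permutation test, p = 0.0938; adjusted p = 0.698), and with equal numbers of top-scoring peaks per library the gene could not be tested.

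In this test of MEF-only regions, run on 3683 genes with at least 5 of them, 10.1% of genes were lower and 0.407% higher with NanogN70 at an unadjusted p under 0.05. None passed after adjustment by the same exact sign-flip test, with 387 at an unadjusted p under 0.05, and the median difference over all genes was -0.375 regions. Of the 5 members that could be tested, 2 were lower at an unadjusted p under 0.05.

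**Figure D2:**
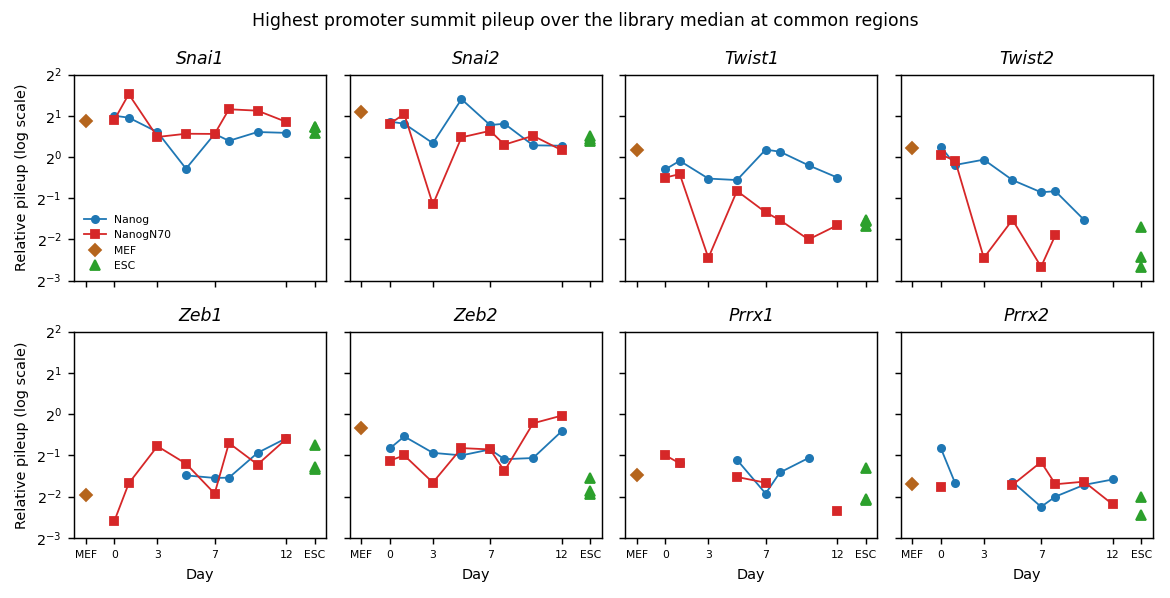
Relative promoter pileup (vertical axis, log scale, no unit) by day (horizontal axis) for each gene in both paths, with the MEF library and the 3 ESC libraries at the sides and 1 library per point. A missing point means no promoter peak. For Twist1 the NanogN70 points lie below the Nanog points on all 8 days, and for Twist2 points are missing on day 12 in both paths.

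Prrx1 (chr1:163245119-163313710, minus strand), which marks limb bud mesenchyme, had the highest share of MEF-only regions. Its promoter was weak in every library, at 14 in MEFs and 13, 9 and 7 in ESCs (relative 0.359 against 0.295 ± 0.0965, SD, n = 3). It had peaks on 5 days in each path, with pileups of 7 to 13 with Nanog and 7 to 12 with NanogN70. The MEF-only regions lay mostly across the gene body and beyond its 3′ end, and 1 lay upstream of the start, with MEF pileups of at most 16, the highest of the distal ones being 28.4 kb from the start (chr1:163285194-163285497). This element had a peak of 6 on day 0 with Nanog and on no other day. Of the 16 MEF-only regions, 8, 4, 2, 2, 3, 1, 0 and 1 were open with Nanog and 6, 3, 1, 1, 1, 1, 0 and 0 with NanogN70 from day 0 to day 12. The mean was 2.63 and 1.63, lower with NanogN70 on 6 of 8 days and higher on none (exact sign-flip permutation test, p = 0.0313; adjusted p = 0.330). With a minimum score of 100 the difference was 0.125 (exact sign-flip permutation test, p = 1).

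An intron element 14.1 kb from the Prrx1 start (chr1:163299445-163299949), singled out after its values were seen, was strongest on the first days with NanogN70. It had 7 in MEFs and none in ESCs. With NanogN70 it had 24, 21, 15, 13, 8 and 6 from day 0 to day 8 and no peak later. With Nanog it had 7, 9, 8, 8, 8 and 8 on the same days, none on day 10 and 5 on day 12. The relative pileup was higher with NanogN70 on days 0, 1 and 5 (1.00, 1.31 and 0.565 against 0.438, 0.563 and 0.286) and lower on days 3 and 8. The region beside it, 14.7 kb from the start, was open only in the time course, on 4 days with Nanog (7 to 9) and 3 with NanogN70 (7 to 12). The ESC-only region at 4.86 kb had 7 and 7 in 2 ESC libraries and appeared on day 12 in both paths (7 with Nanog, 9 with NanogN70).

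Prrx2 (chr2:30834972-30881251, plus strand) is a relative of Prrx1 with 12 MEF-only regions. Of these, from 1 to 6 were open with Nanog and from 1 to 5 with NanogN70, with means of 3.25 and 3.50 (exact sign-flip permutation test, p = 0.844; adjusted p = 1). The direction turned at a minimum score of 100 and with equal numbers of top-scoring peaks, where the difference was -0.875 each time. On day 12 NanogN70 had 5 and Nanog had 2. The intron element at chr2:30864632-30865463, singled out after its values were seen, had 15 in MEFs and 11, 6, 12, 12, 16, 15, 12 and 7 with Nanog, and was open on 6 days with NanogN70 (14, 5, 5, 8, 5 and 7). The MEF-only distal region with the highest MEF pileup, at -11.4 kb and within the gene Asb6, had 23 in MEFs. It had 24, 10 and 11 on days 8, 10 and 12 with Nanog and 8, 10, 8 and 12 on days 1, 8, 10 and 12 with NanogN70. The promoter was weak throughout, at 12 in MEFs, 8 and 7 in 2 ESC libraries, 5 to 9 with Nanog and 7 to 17 with NanogN70. A pair of neighbouring MEF-only promoter regions (chr2:30836290-30836544 and chr2:30836605-30836952), with 8 and 9 in MEFs, had no peak with Nanog. With NanogN70 they were open on 5 and 4 days, at most at 17 and 15 on day 7. The ESC-only distal region at 44.7 kb had 7 and 11 in 2 ESC libraries and no peak on any day. The intron region at 5.11 kb, open only in the time course, had 5, 6 and 6 on days 0 to 3 with Nanog and 5 on day 0 with NanogN70.

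Zeb2 (chr2:44983632-45117395, minus strand), known for neural crest and for Mowat-Wilson syndrome, has 17 start sites in the annotation and held the most regions. The highest promoter pileup was 31 in MEFs and 11, 10 and 8 in ESCs, a relative level of 0.795 against 0.294 ± 0.0433 (SD, n = 3) and a ratio of 2.70. With Nanog it was 9, 11, 12, 14, 21, 15, 11 and 18, and with NanogN70 11, 8, 19, 13, 21, 10, 24 and 40. The paths differed by -0.05 on the log2 scale (exact sign-flip permutation test, p = 0.813; adjusted p = 0.925), a sign that turned without day 1 or day 3 and with another scaling. The peak that led in MEFs was not the one that led late. The region at chr2:45109711-45110579, near start sites inside the gene, had 31 in MEFs and 9, 11, 12, 13, 16, 15, 9 and 8 with Nanog, and was open on 3 days with NanogN70. Some other start-site regions were open on more days with NanogN70. Those at chr2:45020985-45021276 and chr2:45023876-45024259 had peaks on 5 days each with NanogN70 (5 to 9 tags) and on none with Nanog. That at chr2:45110960-45111447 had 6 days with NanogN70 (7 to 21 tags) and 1 with Nanog, and the MEF-only region at chr2:45112848-45113290 had 4 and 1. Open days were fewer with NanogN70 at chr2:45116117-45116444 (1 against 3), chr2:45113346-45113534 (0 against 1) and the most 5′ start site (6 against 7). The region at this most 5′ start site (chr2:45117006-45117548) had 10 in MEFs, and on day 12 it had 18 with Nanog and 40 with NanogN70. In relative terms these were 0.256, 0.750 and 0.976. With Nanog its highest raw pileup was 21, on day 7.

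The far 3′ side of Zeb2 held its strongest MEF-only elements. That at 140.1 kb from the start (chr2:44976221-44977516), beyond the 3′ end of the gene, had 41 in MEFs, 9 on day 0 in each path and no peak from day 1 on. All 13 MEF-only regions together had 4, 3, 0, 0, 0, 0, 0 and 1 open with Nanog and 5, 3, 1, 2, 1, 0, 0 and 0 with NanogN70, a mean of 1 against 1.50 (exact sign-flip permutation test, p = 0.313; adjusted p = 0.751). This direction turned with equal numbers of top-scoring peaks, where the difference was -1.125 (exact sign-flip permutation test, p = 0.0156; adjusted p = 0.0924), and it was -0.125 at a minimum score of 100, by summit position and without ESC replicate 1 or 2. The strongest ESC-only distal element, in an intron at 79.6 kb (chr2:45037605-45037971), had 14, 25 and 12 in ESCs and no peak on any day of either path.

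Several elements within Zeb2 were open on different days in the 2 paths. The element at 45.8 kb (chr2:45071285-45071840) was closed in MEFs and ESCs, had 11, 12, 9, 9, 10 and 8 with NanogN70 from day 0 to day 8, and 6 and 4 on days 5 and 7 with Nanog. The element at 72.6 kb had 5, 11, 9 and 9 on days 1 to 7 with NanogN70 and no peak with Nanog. Without day 3 the open days with NanogN70 and Nanog numbered 5 and 2 at 45.8 kb and 3 and 0 at 72.6 kb. An ESC-only element at 12.7 kb, in an exon, with 10, 6 and 10 in ESCs, had 6, 8, 5 and 12 on days 5, 7, 10 and 12 with NanogN70 and no peak with Nanog. In the opposite direction, the element at 14.1 kb was open on 6 days with Nanog, at 4 to 5 tags, and had no peak with NanogN70. These pileups are close to the lowest that passed as a peak.

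**Figure D3:**
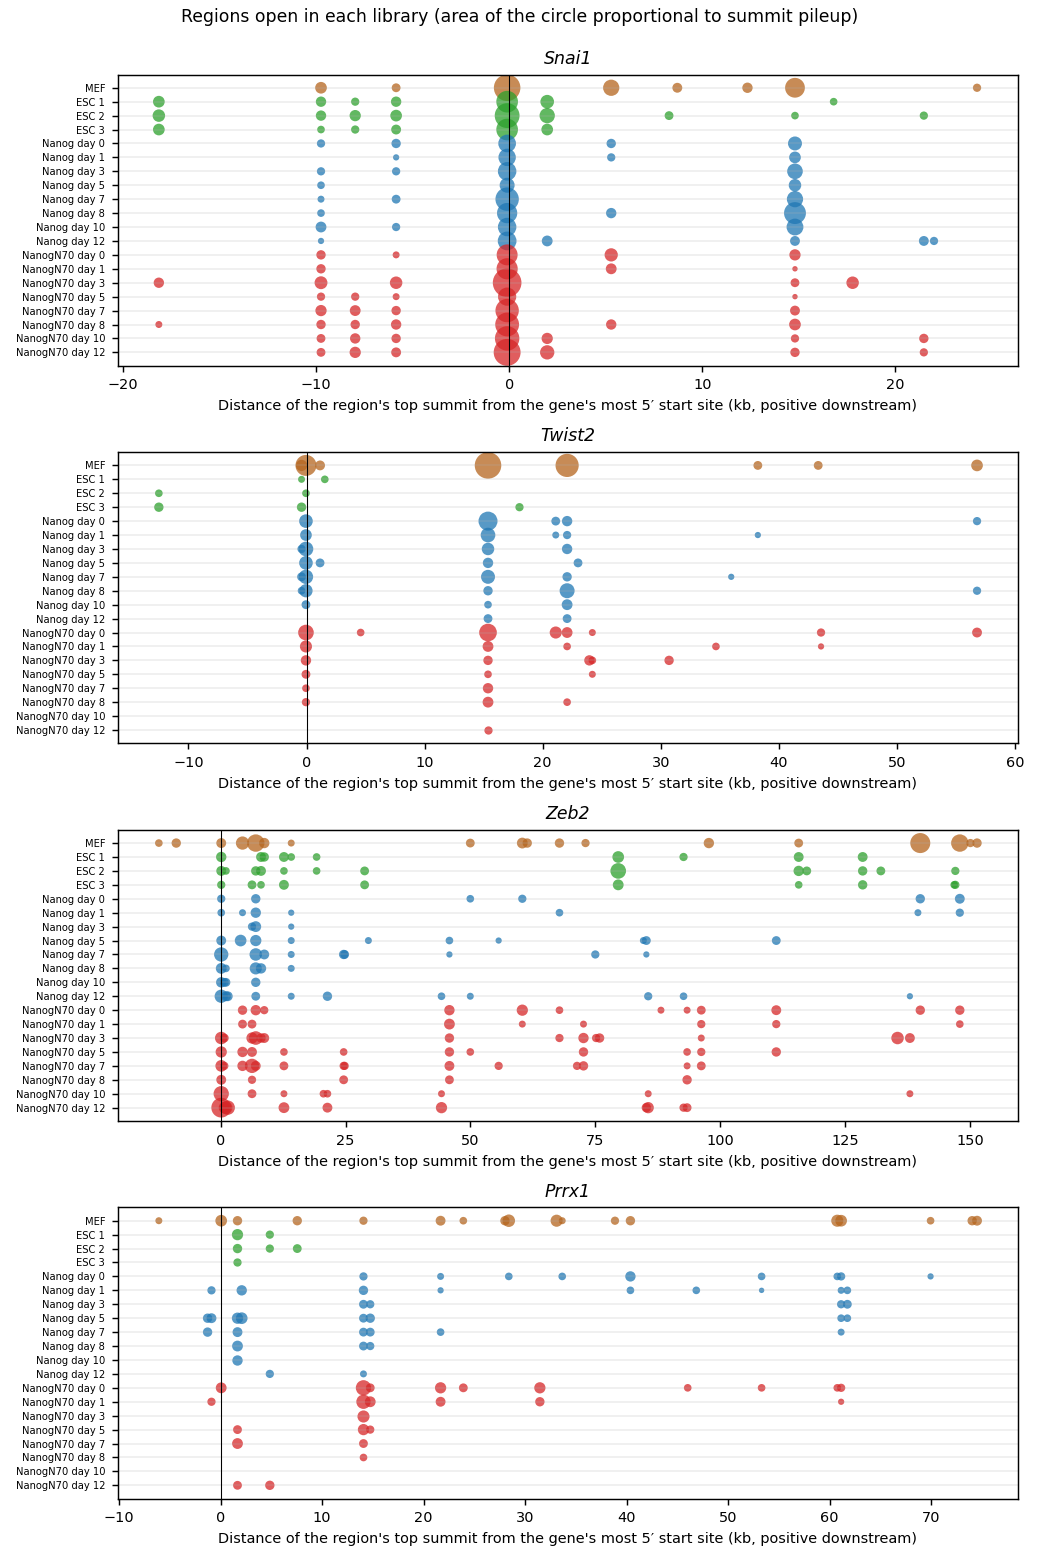
Position of each region's top summit relative to the most 5′ start site (horizontal axis, kb, positive downstream of the start) in each library (rows) for Snai1, Twist2, Zeb2 and Prrx1, with the area of the circle proportional to the summit pileup in tags. The Twist2 intron elements at 15.4 and 22.1 kb have their highest pileups in MEFs (72 and 55 tags), and the Snai1 element at -7.98 kb appears in ESCs and in NanogN70 from day 5.

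Zeb1 (chr18:5591860-5775467, plus strand), the closest relative of Zeb2, was the only one of the 7 members compared whose promoter had a ratio of MEFs to ESCs below 1. The pileup was 10 in MEFs and 19, 15 and 12 in ESCs, relative levels of 0.256 and 0.467 ± 0.110 (SD, n = 3) and a ratio of 0.549 that was not called. With Nanog the promoter had no peak on days 0, 1 and 3 and then 10, 13, 11, 12 and 16. With NanogN70 it was 4, 5, 35, 10, 10, 16, 12 and 27, where the 35 is from the day 3 library that stood apart. Both paths thus ended day 12 above the MEF value in raw and in relative terms (0.667 with Nanog and 0.659 with NanogN70). The highest MEF pileup among MEF-only distal elements, 20, was shared by 2 intron elements. The one at 27.7 kb had no peak on any day, and the one at chr18:5740139-5740713 had 12, 5 and 4 on days 0, 3 and 8 with Nanog and 11 and 7 on days 0 and 1 with NanogN70. Of 8 MEF-only regions, a mean of 1.63 was open with Nanog and of 1.50 with NanogN70 (exact sign-flip permutation test, p = 1; adjusted p = 1). The intron element at 92.9 kb, open only in the time course, had 11, 11, 9 and 6 on days 0 to 5 with NanogN70 and 7 on day 5 with Nanog, or 3 open days and 1 without day 3.

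Over all 8 genes, the open MEF-only regions were counted by day. Of 61, with Nanog 20, 16, 7, 9, 12, 14, 6 and 7 were open from day 0 to day 12, and with NanogN70 23, 15, 5, 9, 9, 9, 2 and 7. On day 0 these were 32.8% and 37.7%, beside backgrounds of 32.5% and 38.4% of all MEF-only regions near protein-coding genes. On day 3 they were 11.5% and 8.20%, beside 14.5% and 12.7%. On day 12 they were 11.5% in each path, beside 7.12% and 4.54%. The 7 regions of day 12 were not all the same, since 4 were open in both paths. Prrx2 alone held 5 of the 7 with NanogN70 and 2 of the 7 with Nanog. With neither factor did a peak appear on any day at 24 of the 61. The same share over all MEF-only regions near protein-coding genes was not counted. The mean number open was 11.4 with Nanog and 9.88 with NanogN70. It was 6.75 and 4.5 at a minimum score of 100, and 7.25 and 3.875 with equal numbers of top-scoring peaks. The 12 regions open in MEFs and all ESC libraries also had peaks missing on the first days, with 58.3% open on day 0 in each path, 50% with Nanog and 66.7% with NanogN70 on day 3, and 66.7% and 91.7% on day 12. Of all such regions near protein-coding genes, 69.1% and 79.7% were open on day 0, 73.7% and 81.5% on day 3, and 74.1% and 79.5% on day 12. How far detection sets the counts of MEF-only regions was not tested.

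**Figure D4:**
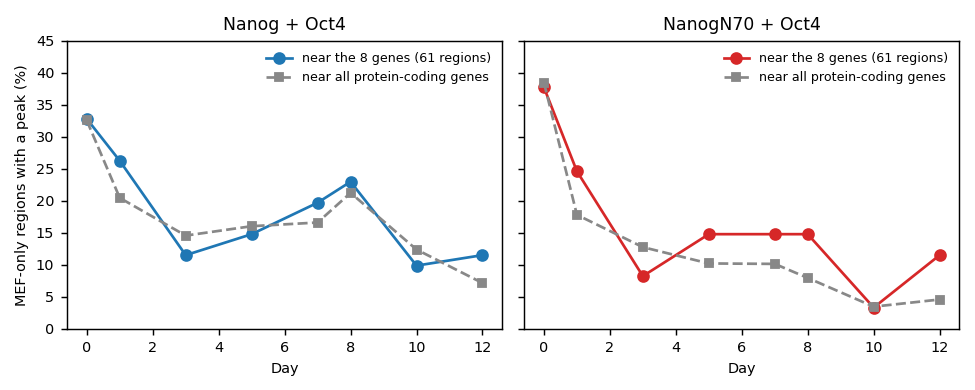
Percentage of MEF-only regions with a peak (vertical axis) by day (horizontal axis) in each path, for the 61 regions near the 8 genes and for all MEF-only regions near protein-coding genes, with 1 library per point. Values are lower on day 3 than on day 0 in both paths, and on day 12 the 8 genes are at 11.5% in each path. With NanogN70, 5 of the 7 regions open on day 12 are at Prrx2.

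ESC-only regions opened seldom. Of 18, the Nanog path had 0 open on days 0 to 5 and 2 on day 12 (11.1%, background 5.88%). NanogN70 had 4 on day 12 (22.2%, background 14.4%). Of the 4, 2 were the Snai1 elements described above. The 72 regions open in neither MEFs nor ESCs held 159 peaks with a median pileup of 7, between 3 and 30. Of these regions, 35 (48.6%) had peaks with NanogN70 alone, 14 (19.4%) with Nanog alone and 23 with both, where the background was 52.8% and 22.6%. Without the 9 regions open on day 3 of NanogN70 and nowhere else, 26 of 63 (41.3%) were in NanogN70 alone, where the background counted the same way was 44%. Of all 195 regions, 9 (4.62%, background 1.96%) were open on at least 4 more days with NanogN70 and 4 (2.05%, background 1.73%) on at least 4 more days with Nanog. Without day 3, an alternative chosen after the data were seen, these were 7 (background 1.27%) and 2 (background 1.19%). With all days counted, most of the 9 lay at Zeb2. The rest were an upstream Snai1 element and the pair of Prrx2 promoter regions described above. The 4 were at Twist1, Twist2 and Zeb2.

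Other genes of epithelial-mesenchymal transition were set beside them. Near 15 genes of the mesenchymal side and its inducers, such as Cdh2, Vim and Tgfbr2, 111 of 437 regions (25.4%) were MEF-only and 14.2% were ESC-only. Near 15 epithelial genes, such as Cdh1, Epcam and Grhl2, 26 of 234 regions (11.1%) were MEF-only and 31.6% were ESC-only. The background over all regions near protein-coding genes was 19.9% MEF-only and 17.2% ESC-only. In the test of MEF-only regions 1 of 8 mesenchymal genes, Tcf4, was lower with NanogN70 at an unadjusted p under 0.05 (background 10.1%). The 1 epithelial gene that could be tested was not, and none passed after adjustment. At the promoter, 1 of 11 and 0 of 3 were lower (background 7.49%) and none was higher (background 8.35%). None of these passed after adjustment. By the rule for MEFs against ESCs, 1 of 12 mesenchymal genes was higher in MEFs (background 3.13%) and 4 of 9 epithelial genes were lower (background 6.48%). A further 4 epithelial genes had a promoter peak in ESCs and none in MEFs, and 1 mesenchymal gene had the reverse. The share of all genes with either pattern was not counted, so these numbers have no background.

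The genes whose share of open regions over the 20 libraries was most like that of each member were found among protein-coding genes with at least 10 regions. For Prrx1 they were Ccdc54 (Pearson r = 0.958) and Ghr (0.946), for Twist2 Trmt5 (0.945) and Tram2 (0.926), and for Zeb1 Rpl39 (0.900) and Iqgap2 (0.894). For Prrx2 they were Kank1 (0.881) and Olfml2b (0.876), for Snai1 Bub3 (0.865) and Kif26a (0.856), for Zeb2 Aifm1 (0.863) and Mrgprg (0.857), and for Twist1 Iqcj (0.859) and Ap3b1 (0.857). These are descriptions over 20 libraries that share their depth and time course, and Snai2 had too few regions.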

How the data were processed

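ATAC-seq peaks were analysed for 20 libraries, 1 per group except ESC (n = 3). The authors trimmed reads (Trim Galore 0.6.4), aligned them to mm10 (Bowtie2 2.4.5), removed repetitive, low-quality and mitochondrial reads (SAMtools 1.16.1) and called peaks per library (MACS 1.4.2, no input named). The deposited score of a peak is a multiple of the negative log10 of the MACS p-value, and the deposited signal of a summit is its pileup in tags, not scaled to depth. Peak calling kept duplicate reads, and any left after filtering would add to pileups, which was not measured.

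Genes are from GENCODE M21 (21 of 21 chromosomes matched mm10), and 14 other sequence names were not used. Promoter pileup is the highest summit within 2 kb of a start site. Paths were compared by day with an exact sign-flip permutation test (256 flips) over all eligible genes, adjusted by the Benjamini-Hochberg method. The test was tried on simulated data with independent days and no shift between whole libraries. How it behaves with linked days of a single time course was not tested. Region classes, the 8 genes, the gene lists and the rules for naming regions were chosen with earlier results of these data known. Named by rule were each promoter, the strongest MEF-only and ESC-only distal region, the time-course-only region open on most days, and distal regions whose open days differ by at least 4. Alternatives were a minimum score of 100, equal peak numbers (44126), 10 kb windows, 1 kb promoters, summits within 250 bp of the top summit, another scaling, subtraction of the difference at shared regions, and leaving out each ESC library or day. Python 3.11.15, numpy 2.4.6 and pandas 2.3.3 were used.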

Additional observations from a re-analysis of the deposited data

How the results depend on the processing

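The limits are depth and replication: 1 library per group outside ESCs, unknown depth, and most peaks near these genes close to the detection limit. At a minimum score of 100 the MEF-only distal regions numbered 34, where 54 were counted at the deposited threshold, the mean open by day was 6.75 with Nanog and 4.5 with NanogN70, and 0 members were at an unadjusted p under 0.05 in either test of the paths. Twist1 then could not be tested. With equal numbers of top-scoring peaks there were 21 MEF-only regions (17 distal) and 8 ESC-only regions, the means were 7.25 and 3.875, 1 member was at p under 0.05 in the test of MEF-only regions (Zeb2), and 0 were called higher in MEFs, since of the 8 genes only Snai1 and Snai2 then kept a promoter peak in MEFs and all ESC libraries. Without each ESC library in turn there were 61 to 66 MEF-only, 54 to 56 MEF-only distal and 11 to 14 ESC-only regions. Without each day or ESC library, 1 to 2 members were at p under 0.05 for MEF-only regions. Prrx1 was not without day 0, 1, 3, 5, 7 or 12, where 5 differing days remain and the test cannot go below 0.0625. Its difference was -1.14 to -0.86. Scaling by all summits shifted the median of all genes by 0.13 (log2), and Snai1 then joined Twist1 (2 members at p under 0.05).

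Several differences between the paths turned sign. For MEF-only regions these were Prrx1 at a score of 100 (0.125), Prrx2 at a score of 100 and with equal peak numbers (-0.875 in each) and after subtraction of the difference at shared regions (-0.066), and Zeb2 at a score of 100 and by summit position (-0.125 in each) and with equal peak numbers (-1.125; exact sign-flip test, p = 0.0156, adjusted p = 0.0924). Zeb1 turned by summit position (0.25). Leaving out single days or ESC libraries gave -0.43 to 0.29 for Zeb1, -0.14 to 0.57 for Prrx2 and -0.125 to 0.71 for Zeb2. The log2 promoter difference of Zeb2 was -0.17 to 0.051 without single days and 0.085 with the other scaling. Twist1 kept its direction wherever it could be tested (-1.24 to -0.98; adjusted p 0.202 to 0.536) and so did Twist2 (-1.25 to -0.86; adjusted p 0.0564 to 0.698). Adjusted p for Prrx1 ranged from 0.101 to 1. The cause of these changes was not tested.

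No paired analysis by replicate number was made, since the labels number replicates in ESCs alone. The paths were paired by day in the sign-flip tests.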
